A study of Mus musculus with 4 samples.

Results

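Vwf, Ly6c1 and 8 other genes that mark the lining cells of blood vessels (Ly6a, Pecam1, Cldn5, Flt1, Kdr, Tek, Esam and Slco1a4) were followed by symbol through 2 tables of gene expression from mouse prelimbic cortex, a medial prefrontal area. Of these 10 genes 9 were found, among 19175 genes listed in either table: 8 of 12318 genes in the stress table and 7 of 15396 in the virus table, with 6 in both. Flt1 was in neither, Slco1a4 was not in the stress table, and Kdr and Tek were not in the virus table. The smallest log2 ratio in either table, where both values were above 0, was 0.322 in size, so an unlisted gene has no value here and is not thereby shown to be alike.

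RNA was sequenced from C57BL/6 mice aged 8 weeks in 4 groups of 1 library each. The stress table sets mice labelled stress-susceptible against control mice; both carry the tag chronic social defeat stress, repeated attack by an aggressor mouse, so the labels do not settle what was done to the control mice. The virus table sets mice given an adeno-associated virus (AAV) carrying CDYL, a chromatin corepressor, against mice given AAV with green fluorescent protein (GFP); neither of these groups has a stress tag. Neither the vectors' promoter nor whether a library is 1 mouse or a pool could be read from the labels. The comparison of susceptible with control mice is called the stress pair, and that of AAV-CDYL with AAV-GFP the virus pair. With 1 library per group no difference below has a replicate check and no test was made.

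Endothelial cells of the brain seal the vessel wall with tight junctions and carry nutrients across it with transporters, which together form the blood-brain barrier. They also store von Willebrand factor in Weibel-Palade bodies, from which it is released to bind platelets, and they receive growth signals through the VEGF receptors Flt1 and Kdr and the angiopoietin receptor Tek. Several of these genes are not restricted to endothelium: megakaryocytes and platelets also make Vwf and Pecam1, lymphocytes carry Ly6a, and the Ly6c proteins mark many monocytes. Because the samples are pieces of tissue, more cells of a type and more RNA per cell cannot be told apart.

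Ly6c1 and Ly6a, both on the minus strand of chromosome 15, encode small membrane-anchored surface proteins, and Ly6c1 has a near-identical neighbour, Ly6c2. The first 120 bases of the coding sequences (GENCODE M21 transcripts, build GRCm38) are shown. Among the stretches of this length compared, this one was chosen because Ly6c1 and Ly6c2 differed most in it. Capitals mark bases that differ from Ly6c1.
Ly6c1: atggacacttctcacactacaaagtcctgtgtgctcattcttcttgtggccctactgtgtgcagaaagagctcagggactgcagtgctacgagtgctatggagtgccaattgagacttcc
Ly6c2: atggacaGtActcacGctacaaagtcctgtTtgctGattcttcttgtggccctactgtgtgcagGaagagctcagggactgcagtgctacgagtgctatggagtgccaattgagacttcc
Ly6a: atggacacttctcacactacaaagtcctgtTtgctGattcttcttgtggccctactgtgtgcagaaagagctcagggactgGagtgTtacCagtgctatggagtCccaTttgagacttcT
Over the whole coding sequence of 393 bases, Ly6c1 and Ly6c2 differed at 9 positions (97.7% identity), 6 of which lie in the stretch shown. Ly6a differed from Ly6c1 at 8 of the 120 bases shown, but over the whole it matched at 81.8% of aligned positions, with 73 of 402 not identical. The stretch shown thus makes Ly6a look more alike than it is. The longest identical run between transcripts was 188 bases for Ly6c1 and Ly6c2 and 89 bases for Ly6c1 and Ly6a, so fragments of Ly6c1 and Ly6c2 cannot be assigned with certainty and their values are also given as a sum.

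Promoter windows of 250 bases before an annotated start were found in RefSeq's table (GRCm38.p6) for 6 of the 10 genes, in 7 windows. Ly6c1, the member with the highest level, and Kdr, a member that stood below its control, are shown; capitals mark a match to GGAAGT, bound by ETS factors, on either strand, which Ly6c1 lacks in this window.
Ly6c1 (chr15:75048838-75049087, minus strand): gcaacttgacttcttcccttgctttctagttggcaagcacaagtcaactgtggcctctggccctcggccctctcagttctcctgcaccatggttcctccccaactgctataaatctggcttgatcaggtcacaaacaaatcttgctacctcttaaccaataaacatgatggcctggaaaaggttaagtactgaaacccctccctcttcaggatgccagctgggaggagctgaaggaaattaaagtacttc
Kdr (chr5:75978456-75978705, minus strand): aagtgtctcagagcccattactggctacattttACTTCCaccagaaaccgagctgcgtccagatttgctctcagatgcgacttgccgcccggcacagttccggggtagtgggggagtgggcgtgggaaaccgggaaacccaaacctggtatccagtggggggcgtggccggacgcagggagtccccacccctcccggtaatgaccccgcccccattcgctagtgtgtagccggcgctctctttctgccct
GGAAGT occurred in 3 of the 7 windows (Kdr, Flt1 and a second start of Ly6c1) and in 19.7% of all 32851 windows of this length. The interferon response element (searched as GAAA, any 2 bases, GAAA) and the STAT-binding GAS element TTCNNNGAA, sought on both strands, occurred in 0 of the 7 windows and in 2.98% and 7.02% of all windows. A match describes letters, and its absence says nothing of a factor.

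Levels are in FPKM, the number of fragments per kilobase of a transcript and corrected for library size, as the authors scaled them within each table. Effective depth, estimated from the smallest increments of FPKM, was about 23500000 fragments for susceptible, 14400000 for control, 24000000 for AAV-CDYL and 22900000 for AAV-GFP. Cdyl itself had 1052 FPKM with AAV-CDYL and 2.68 with AAV-GFP, as the labels say, and 2.54 in susceptible and 1.98 in control. Every listed member was above 1 FPKM in both libraries of its table, the lowest being Kdr at 1.54 FPKM in the susceptible library, backed by about 215 fragments. Approximate 95% intervals for counting error did not overlap between the 2 libraries for any listed member, but they cover counting error only and not the spread between mice. Since no gene with both values above 0 is listed at a log2 ratio under 0.322 in size, this is partly set by being listed. The share of all genes without overlap was not taken, so it is no trait of the members. No exonic base of a member lies in another annotated gene, and no member shared a locus with another listed gene.

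**Figure D1:**
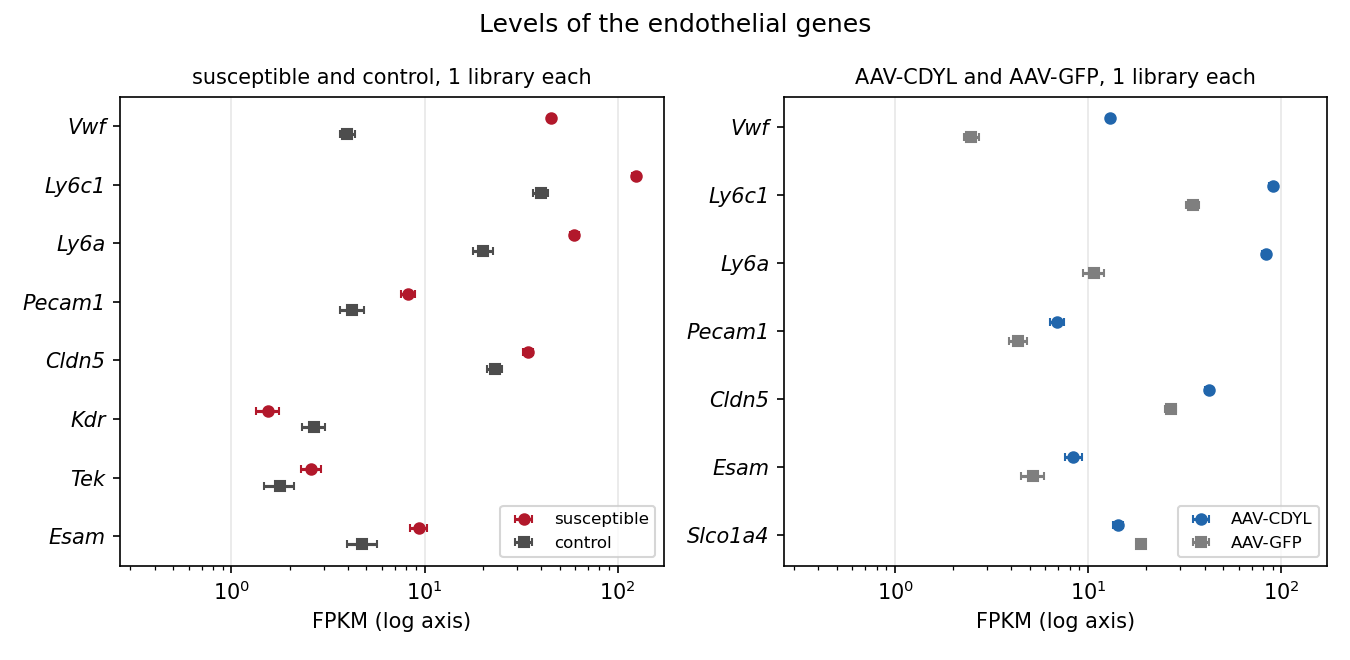
FPKM (log axis) of each listed endothelial gene in the susceptible and control libraries (left) and in the AAV-CDYL and AAV-GFP libraries (right), 1 library per group; bars are approximate 95% intervals for counting error only. Vwf stands at 45.3 FPKM in susceptible and 3.98 in control, and Kdr and Slco1a4 are the genes whose point for the susceptible or AAV-CDYL library lies to the left.

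In the susceptible library Vwf, Ly6c1 and Ly6a stood well above control, the junction genes Pecam1 and Esam stood about as far above control as each other, and the VEGF receptor gene Kdr stood below it. Counted as higher or lower are genes that reached 1 FPKM in at least 1 library of the pair (the floor) and whose log2(FPKM + 1) moved by 1.5-fold or more (0.585), a scale on which low genes appear to differ less than they do. Of the 8 listed members 5 were higher and 0 lower, and 7 lay above control, with a median difference of 0.83. Of all 5334 genes at this floor 18.9% were higher and 10.8% were lower. Of them 52.3% lay above control, and the median difference was 0.24. Among genes with a control level of at least 1 FPKM, as all 8 members had, 13.5% were higher and 12.4% lower. Of these 45.3% lay above control, with a median of -0.29. Genes with both values above 0 have no log2 ratio under 0.322 in size, which leaves few differences near 0. The sign of the median turned with the floor, so it is no firm baseline for centring. The split of all genes, 1006 higher and 575 lower, depended on scaling: it was 532 and 1918 after centring on the median difference, and 2454 and 215 after scaling to a common upper quartile. Under centring 4 members were higher and Kdr was lower, and under the upper quartile 7 were higher.

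Vwf, the gene of von Willebrand factor (ENSMUSG00000001930, chromosome 6, 125546774 to 125686679, mm10, 52 exons in its principal transcript), had 45.3 FPKM in the susceptible library and 3.98 FPKM in the control library, a ratio of 11.4. Its difference of 3.22 ranked 19 from the highest among the 5334 genes. Ly6c1 (ENSMUSG00000079018, chromosome 15, 75044018 to 75048830) had 124 FPKM in susceptible and 40.05 in control, a ratio of 3.09. Ly6a, also known as Sca-1 (chromosome 15, 74994877 to 74998031), had 59.6 FPKM in susceptible and 20.1 in control, a ratio of 2.96. These 3 genes had the largest differences among the members in this pair, and in the control library Vwf was the lowest of the 3 by a wide margin.

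Of the junction genes, Pecam1, an adhesion molecule at endothelial cell contacts (chromosome 11, 106654217 to 106750628), had 8.22 FPKM in susceptible and 4.22 in control. Esam, an adhesion molecule of endothelial tight junctions (chromosome 9, 37528078 to 37538319), had 9.30 FPKM in susceptible and 4.75 in control. Their ratios were 1.95 and 1.96. Cldn5, the main claudin of brain endothelium (chromosome 16, 18776847 to 18778260), had 34.3 FPKM in susceptible and 23.02 in control, a ratio of 1.49 that fell just short of the size rule and was not counted. The nearest member counted was Pecam1, with a difference of 0.82 against 0.56 for Cldn5.

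The receptor genes were low and went different ways. Kdr, the main signalling receptor for VEGF-A (chromosome 5, 75932827 to 75978458), had 1.54 FPKM in susceptible and 2.67 in control, 1.73-fold lower. Tek, which encodes the angiopoietin receptor Tie2 (chromosome 4, 94739289 to 94874976), had 2.58 FPKM in susceptible and 1.77 in control, a ratio of 1.45. Neither was counted by the size rule; with a pseudocount of 0.5 or 0.1 in place of 1 Kdr was counted as lower (-0.63 and -0.75).

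Among the genes listed in the authors' deposited table, 0.284% were higher and 0.0487% lower at q under 0.05, and Vwf and Ly6c1 were among the higher ones, each with q = 0.0225. Ly6a had q = 0.0513 in the authors' deposited table, and the other 5 members had q of 0.946 or more. These values set 1 library against another.

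**Figure D2:**
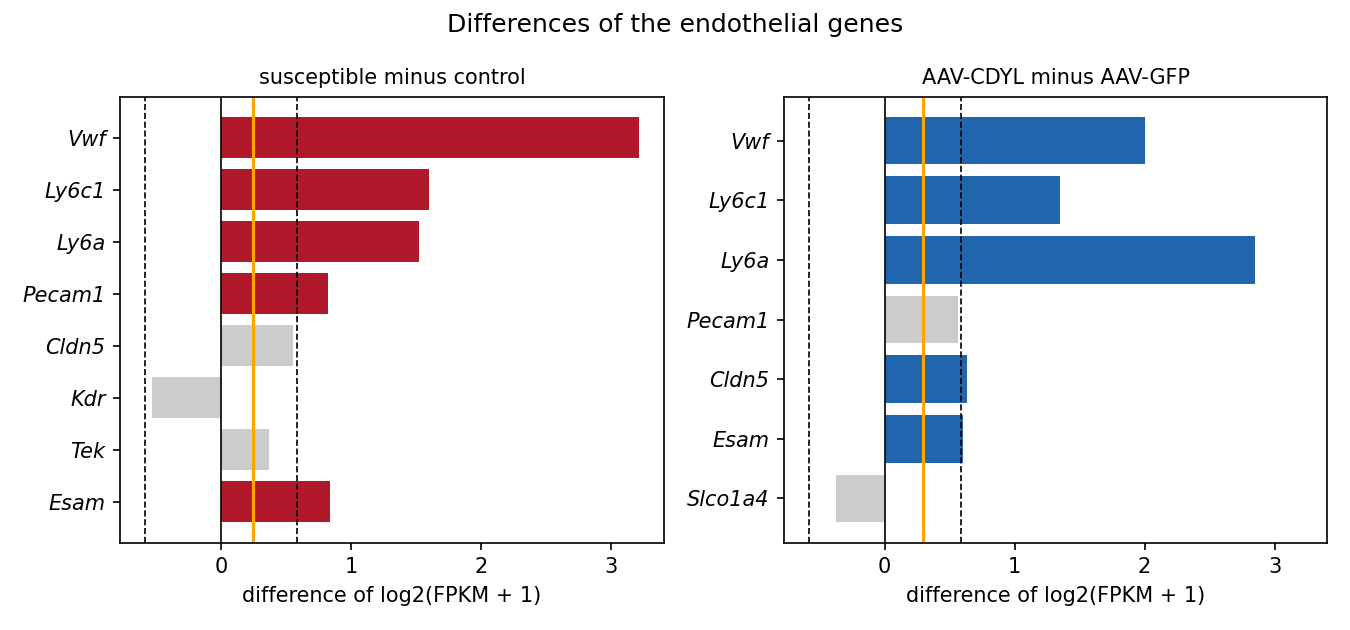
Difference of log2(FPKM + 1) for each listed endothelial gene, susceptible minus control (left) and AAV-CDYL minus AAV-GFP (right). Dashed lines mark the size rule of 1.5-fold, grey bars genes not counted by it, and the orange line the median of all genes at the floor (0.24 and 0.30). Over genes with a control or AAV-GFP level of at least 1 FPKM these medians are -0.29 and -0.32. Vwf leads on the left and Ly6a on the right.

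In the AAV-CDYL library Ly6a led the members and Vwf and Ly6c1 followed, Pecam1, Cldn5 and Esam differed by nearly equal ratios, and the transporter gene Slco1a4 stood below AAV-GFP. Of the 7 listed members 5 were higher and 0 lower, and 6 lay above AAV-GFP, with a median difference of 0.63. Of all 8047 genes at the floor 31.3% were higher and 14.4% were lower. Of them 53.4% lay above AAV-GFP, and the median was 0.30. Among genes with an AAV-GFP level of at least 1 FPKM, as all 7 members had, 21.2% were higher and 17.4% lower. Of these 43.8% lay above AAV-GFP, with a median of -0.32, so here too the sign of the median turned with the floor. After centring on the median difference the split of all genes, 2516 higher and 1159 lower, became 1630 and 3572, with 3 members higher (Vwf, Ly6c1 and Ly6a) and Slco1a4 lower. The differences of Cldn5 (0.63) and Esam (0.60) lay just past the size rule and that of Pecam1 (0.56) just short of it, so the count of 5 turns on small distances. Their places among all genes were ordinary, since 29.2% of genes lay above Cldn5, 30.4% above Esam and 32.5% above Pecam1.

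Ly6a had 83.3 FPKM with AAV-CDYL and 10.7 with AAV-GFP, a ratio of 7.81. Vwf had 12.9 FPKM with AAV-CDYL and 2.48 with AAV-GFP, a ratio of 5.22. Ly6c1 had 89.95 FPKM with AAV-CDYL and 34.7 with AAV-GFP, a ratio of 2.59. In this table of many higher genes these differences were less exceptional than in the stress table, with 3.01% of genes above Ly6a, 5.92% above Vwf and 11.6% above Ly6c1, against 2.42% above Ly6a, 0.337% above Vwf and 2.23% above Ly6c1 in the stress table.

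Pecam1 had 6.87 FPKM with AAV-CDYL and 4.34 with AAV-GFP. Cldn5 had 42.1 FPKM with AAV-CDYL and 26.8 with AAV-GFP. Esam had 8.36 FPKM with AAV-CDYL and 5.16 with AAV-GFP. The ratios of these 3 genes were 1.58, 1.57 and 1.62. Slco1a4, an organic anion transporter of the blood-brain barrier (chromosome 6, 141805440 to 141856199), had 14.3 FPKM with AAV-CDYL and 18.8 with AAV-GFP, 1.31-fold lower and not counted. In the authors' deposited table none of these 7 genes had q under 0.05, where 0.955% of listed genes were higher and 0 lower; the smallest value was that of Ly6a, q = 0.107.

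Ratios between genes of the same library do not depend on how the libraries were scaled. Per FPKM of Cldn5, Vwf stood at 1.32 in susceptible and 0.173 in control, 7.63-fold higher, and at 0.307 with AAV-CDYL and 0.0926 with AAV-GFP, 3.32-fold higher. Ly6a per Cldn5 stood at 1.74 in susceptible and 0.874 in control, and at 1.98 with AAV-CDYL and 0.398 with AAV-GFP, 1.99-fold and 4.97-fold higher. Ly6c1 per Cldn5 was 2.07-fold higher in susceptible and 1.65-fold higher with AAV-CDYL. Vwf, Ly6a and Ly6c1 thus differed by more than Cldn5 in both pairs.

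The junction genes kept close to Cldn5, above all in the virus pair. Esam per Cldn5 was 1.31-fold higher in susceptible and 1.03-fold higher with AAV-CDYL, and Pecam1 per Cldn5 1.31-fold and 1.01-fold higher. Tek per Cldn5 stood at 0.0751 in susceptible and 0.0771 in control. Kdr per Cldn5 stood at 0.0449 in susceptible and 0.116 in control, and Slco1a4 per Cldn5 at 0.339 with AAV-CDYL and 0.700 with AAV-GFP, so both were lower relative to Cldn5 by more than by FPKM alone.

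**Figure D3:**
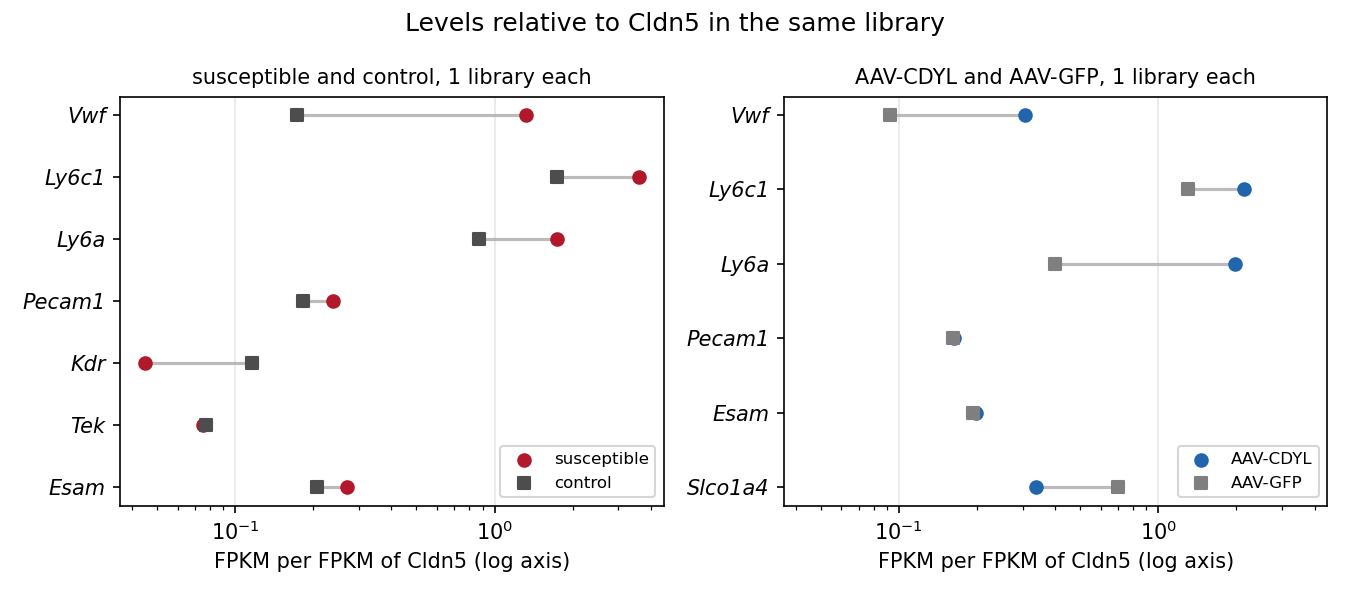
FPKM of each endothelial gene per FPKM of Cldn5 in the same library (log axis), susceptible and control on the left, AAV-CDYL and AAV-GFP on the right, 1 library per group. Vwf per Cldn5 is 7.63-fold higher in susceptible, while Pecam1 and Esam with AAV-CDYL lie almost on their AAV-GFP points.

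The tables were normalized separately, so an order of levels over all 4 libraries is a description only. Vwf was highest in susceptible (45.3 FPKM), then AAV-CDYL (12.9), control (3.98) and AAV-GFP (2.48), and Ly6c1 ran in the same order (124, 89.95, 40.05 and 34.7). For Ly6a the AAV-CDYL library was highest (83.3), then susceptible (59.6), control (20.1) and AAV-GFP (10.7). Pecam1, Cldn5 and Esam were higher in both of the susceptible and AAV-CDYL libraries than in either of control and AAV-GFP. Control and AAV-GFP differed least for Pecam1, at 4.22 and 4.34 FPKM.

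The Ly6 relatives were read beside Ly6c1 and Ly6a. Ly6c2, which marks monocytes, had 16.2 FPKM in susceptible and 3.63 in control, and 79.1 with AAV-CDYL and 3.47 with AAV-GFP, a ratio of 4.46 in the first pair and 22.8 in the second. Summed with Ly6c1, the level was 140 FPKM in susceptible and 43.7 in control, and 169 with AAV-CDYL and 38.2 with AAV-GFP, or 3.20-fold and 4.42-fold higher. Ly6c2 made up 11.6% of that sum in susceptible, 8.32% in control, 46.8% with AAV-CDYL and 9.09% with AAV-GFP. Taken as a sum, the Ly6c genes therefore differed more in the virus pair than in the stress pair, while Ly6c1 alone had the larger ratio in the stress pair.

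Across the Ly6 and uPAR domain family without the members, 13 of 25 genes were in the stress table and 6 reached 1 FPKM, of which 3 were higher and 2 lower (median 0.13). Only 5 of these reached 1 FPKM in control itself. They split evenly, 2 up and 2 down by the size rule, and their median turned to -0.35. Lynx1, a neuronal modulator of nicotinic receptors, was lower at 75.7 FPKM in susceptible and 128 in control. With AAV-CDYL and AAV-GFP 11 reached 1 FPKM, of which 7 were higher and 2 lower (median 0.82). Only 7 of the 11 reached 1 FPKM in AAV-GFP itself, and the others passed the floor through AAV-CDYL. Among those 7 the size rule counted 3 up and 2 down, and the median fell to 0.42. Ly6i, a family member on the same chromosome, was listed at 10.7 FPKM with AAV-CDYL and at 0 with AAV-GFP, and Ly6d at 3.07 and at 0. Ly6e, a broadly expressed member, had 475 FPKM with AAV-CDYL and 200 with AAV-GFP, and Lynx1 was again lower, with 68.3 and 114 FPKM.

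Further genes were read from 8 lists of 168 genes, 7 drawn up around endothelial functions and 1 holding the Ly6 and uPAR family; other cell types also express many of them. Of those in the stress table, 72 reached 1 FPKM, of which 22 (30.6%) were higher and 6 were lower. Of all genes 18.9% were higher and 10.8% lower. The median was 0.44, against 0.24 for all genes. Of those in the virus table, 88 reached 1 FPKM, of which 40 (45.5%) were higher and 6 were lower. Of all genes 31.3% were higher and 14.4% lower. The median was 0.53, against 0.30. With AAV-CDYL the identity (31.2%), transport (30%), transcription factor (27.3%) and junction (20%) lists were at or below the share of all genes. The haemostasis (72.7%), Ly6 (63.6%), VEGF (37.5%) and activation (81.8%) lists were above it. In the stress pair the haemostasis list (14.3%) was below that share and transport (20%) was close to it. Without the Ly6 family, a count added after the data were seen, 19 of 66 were higher and 4 lower in the stress pair, and 33 of 77 higher and 4 lower in the virus pair. The balance over the 8 lists depended on scaling, as did that of all genes. In the stress pair the lists turned to 11 higher and 16 lower after centring, where 9.97% of all genes were higher and 36% lower. After upper quartile scaling they had 43 higher and 2 lower, where 43.9% of all genes were higher and 3.85% lower. With AAV-CDYL they had 26 higher and 14 lower after centring, where 20.3% of all genes were higher and 44.4% lower. Where the control level was at least 1 FPKM, 18 of 60 were higher, and where the AAV-GFP level was, 29 of 71. Of all such genes 13.5% and 21.2% were higher. The medians were then 0.43 and 0.42, against -0.29 and -0.32 for all genes, whose median changes sign with the floor.

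Of the haemostasis genes around Vwf, 1 of 7 in the stress pair was higher and 0 were lower (median 0.32): Adamts13, the protease that cleaves von Willebrand factor, had 4.76 FPKM in susceptible and 2.36 in control. F3, tissue factor, had 16.2 FPKM in susceptible and 10.5 in control and was not counted. With AAV-CDYL 8 of 11 were higher and 0 lower (median 0.83), led by Cd63, a membrane protein of Weibel-Palade bodies and of lysosomes, at 178 FPKM with AAV-CDYL and 40.6 with AAV-GFP. Pros1, the anticoagulant protein S, had 17.0 FPKM with AAV-CDYL and 3.27 with AAV-GFP. P-selectin (Selp), which is stored with von Willebrand factor, was under 1 FPKM in all 4 libraries and listed at 0 in control and AAV-GFP.

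Of the endothelial identity genes 4 of 14 were higher and 1 lower in the stress pair (median 0.50). Podxl, a sialomucin of the luminal surface, had 16.4 FPKM in susceptible and 5.50 in control, Ctla2a, a protease inhibitor, 13.1 and 5.06, and Pglyrp1, a peptidoglycan-binding protein, 33.3 and 14.2. With AAV-CDYL 5 of 16 (31.2%) were higher and 1 lower (median 0.42), which is near the 31.3% higher among all genes. Mcam, CD146, had 8.09 FPKM with AAV-CDYL and 2.57 with AAV-GFP, counted at a locus of 2 listed genes, and Ctla2a 5.24 and 2.27.

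Junction genes were higher for 3 of 11 in the stress pair (0 lower, median 0.36). Ocln, occludin, had 3.02 FPKM in susceptible and 1.37 in control, F11r, which encodes JAM-A, 4.09 and 2.10, and Cdh5, VE-cadherin, 3.59 and 1.92. With AAV-CDYL 2 of 10 were higher and 0 lower (median 0.53), and F11r had 9.58 FPKM with AAV-CDYL and 2.11 with AAV-GFP. Cdh5 had 3.81 FPKM with AAV-CDYL and 2.78 with AAV-GFP and was not counted.

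In VEGF, angiopoietin and Notch signalling 2 of 7 genes were higher and 1 lower in the stress pair (median 0.46). Apln, the apelin ligand made by endothelial tip cells, had 2.13 FPKM in susceptible and 5.46 in control and was lower, while Tie1, the partner receptor of Tek, had 2.33 and 1.15 and Unc5b, a netrin receptor, 3.81 and 1.68. With AAV-CDYL 3 of 8 were higher and 2 lower (median 0.39). Notch4, an endothelial Notch receptor, had 1.499 FPKM with AAV-CDYL and 9.81 with AAV-GFP, and Unc5b 6.16 and 2.35.

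Barrier transport genes went both ways in the stress pair, with 2 of 10 higher and 2 lower, and a median of -0.40. Slc2a1, the glucose transporter GLUT1, had 49.8 FPKM in susceptible and 28.8 in control, counted at a locus of 2 listed genes. Slc40a1, the iron exporter ferroportin, had 1.40 FPKM in susceptible and 3.25 in control. With AAV-CDYL 3 of 10 were higher and 0 lower (median 0.42), led by Slco2b1 (11.01 FPKM with AAV-CDYL and 3.77 with AAV-GFP, in a locus of 3 listed genes) and the glutamine transporter gene Slc38a3 (35.3 and 17.6).

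Transcription factors of endothelium were higher for 2 of 8 in the stress pair (0 lower, median 0.46) and for 3 of 11 with AAV-CDYL (1 lower, median 0.35). Gata2 was higher in the first pair, at 4.55 FPKM in susceptible and 1.97 in control, and lower in the second, at 0.862 with AAV-CDYL and 2.69 with AAV-GFP. Klf2, a factor induced by blood flow, had 5.31 FPKM in susceptible and 3.04 in control, and Lmo2 15.9 with AAV-CDYL and 6.05 with AAV-GFP.

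Activation genes, which inflamed endothelium uses to bind leukocytes and to signal, had the largest list median of the 8 in each pair over genes at the floor. In the stress pair 5 of 9 were higher and 0 lower (median 0.96), but of the 5 with a control level of at least 1 FPKM 2 were higher, with a median of 0.46, below that of the identity (0.50), VEGF (0.49) and transcription factor (0.47) lists on the same footing. Lrg1 had 9.28 FPKM in susceptible and 0.960 in control, Ch25h (a locus of 2 listed genes) 6.33 and 0.661, and the leukocyte adhesion gene Icam1 3.14 and 0.884. With AAV-CDYL 9 of 11 were higher and 0 lower (median 1.55), including 5 of the 6 with an AAV-GFP level of at least 1 FPKM. Icam1 had 13.02 FPKM with AAV-CDYL and 0.487 with AAV-GFP, Tnfrsf1a, a tumour necrosis factor receptor, 15.1 and 1.76, and Vcam1, another adhesion gene, 20.7 and 5.44, whereas Vcam1 in the stress pair stood at 4.10 in susceptible and 5.54 in control.

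**Figure D4:**
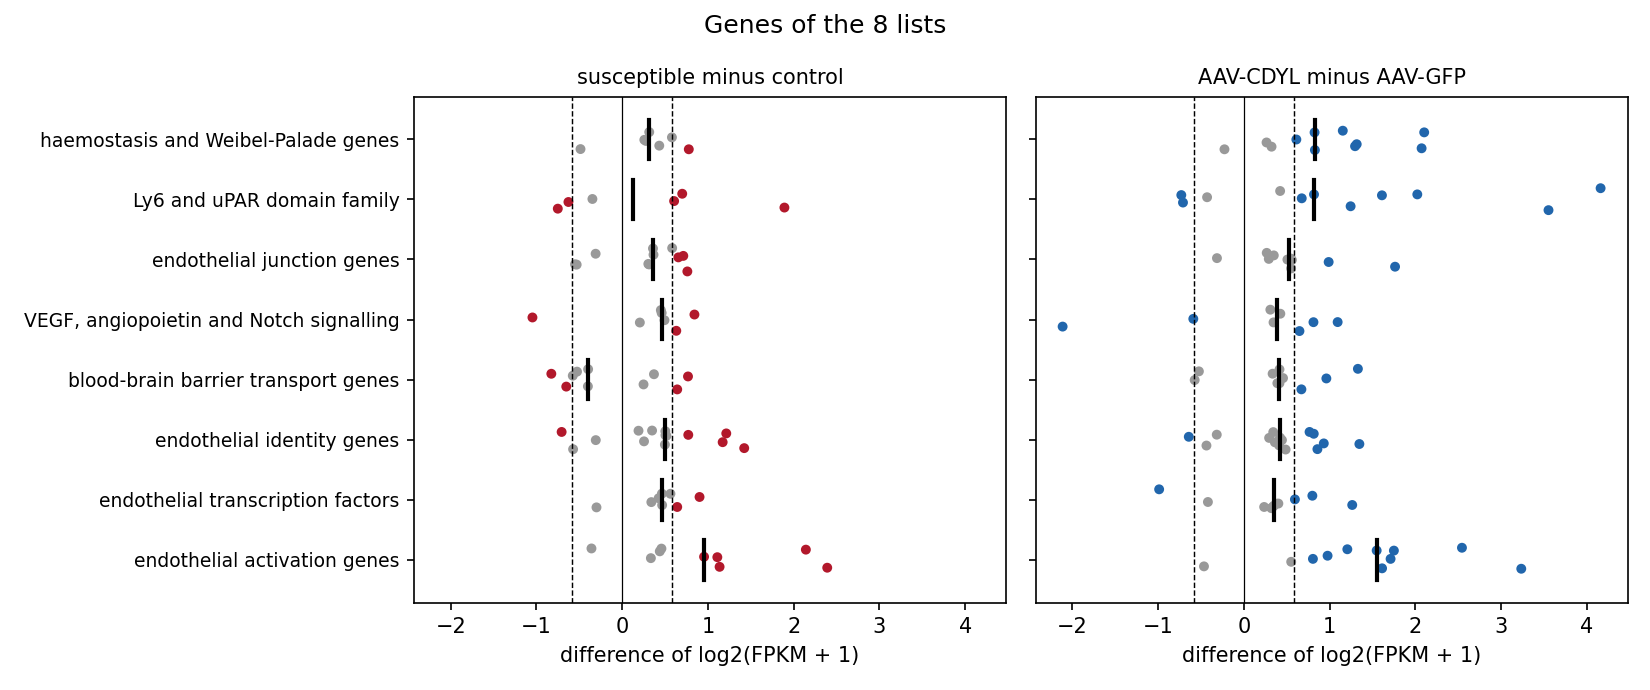
Difference of log2(FPKM + 1) for the genes of the 8 lists at 1 FPKM or more in either library, susceptible minus control (left) and AAV-CDYL minus AAV-GFP (right). Each point is a gene, coloured where the size rule (dashed lines) counts it, and black bars are list medians; that of activation genes is 0.96 on the left, or 0.46 over genes with a control level of at least 1 FPKM, and 1.55 on the right.

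Markers of other cells also differed within the pairs, some upwards and some downwards, and their part in the results was not tested. Of all genes at the floor 18.9% were higher in the stress pair and 31.3% in the virus pair. In the stress pair platelet markers (7 of 8 listed, 1 of the 2 at the floor higher) summed to 5.40 FPKM in susceptible and 4.72 in control. Pf4, platelet factor 4, had 1.496 and 0.206, and Treml1 was listed at 0 in control. Gp1bb, the 1 platelet marker with a control level of at least 1 FPKM, stood lower in susceptible (2.43) than in control (3.39) and was not counted. Of the red cell markers, which blood in the tissue would bring, 2 of 5 were lower and 0 higher, and they summed to 519 FPKM in susceptible and 873 in control. Haemoglobin genes made up nearly all of both sums, led by Hba-a2 at 180 FPKM in susceptible and 362 in control. Leukocyte markers (6 of 14 listed) summed to 3.19 FPKM in susceptible and 1.32 in control, with Ccr2 at 0 in control. Mural cell markers were higher for 2 of 8, but for 0 of the 5 with a control level of at least 1 FPKM, with sums of 22.4 FPKM in susceptible and 11.1 in control, and the smooth muscle actin gene Acta2 had 4.34 FPKM in susceptible and 0.515 in control.

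In the virus pair leukocyte markers were higher for the 12 genes at the floor, of which 1 had an AAV-GFP level of at least 1 FPKM and the others reached the floor through AAV-CDYL, and they summed to 67.7 FPKM with AAV-CDYL and 2.45 with AAV-GFP, where 7 of the 14 were at 0, among them Cd3g and Cd8a. Interferon-induced genes were higher for all 15, 9 of them with an AAV-GFP level of at least 1 FPKM, with a median of 4.66 and sums of 1105 and 29.7 FPKM; Ly6a, Ly6c1 and Ly6e can be induced by interferon. In the stress pair 7 of 10 interferon-induced genes were higher (median 0.95, sums of 62.5 in susceptible and 25.5 in control), 3 of them among the 5 with a control level of at least 1 FPKM. Platelet markers summed to 4.81 FPKM with AAV-CDYL and 5.83 with AAV-GFP (6 of 8 listed, the 1 at the floor lower), with Clec1b, Gp6 and Treml1 at 0 in AAV-GFP. Mural markers were higher for 2 of 9 (1 of the 7 with an AAV-GFP level of at least 1 FPKM) and summed to 65.5 FPKM with AAV-CDYL and 37.0 with AAV-GFP. Red cell markers (2 of 7 listed) summed to 0.578 FPKM with AAV-CDYL and 1.54 with AAV-GFP. Nearly all of both sums came from Alas2, and no haemoglobin gene was listed at the floor. Unlisted genes have no value here, so these sums do not show how much red cell RNA there was. Fibroblast markers, 4 of 5 higher, summed to 22.8 FPKM with AAV-CDYL and 9.28 with AAV-GFP. In the stress pair 2 of 5 fibroblast markers were higher (1 of the 3 with a control level of at least 1 FPKM). Their sums there were 14.6 FPKM in susceptible and 8.17 in control.

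Oligodendrocyte and astrocyte marker sums stood above in both pairs and neuron marker sums below. Oligodendrocyte markers were higher for 9 of 10 in the stress pair, with sums of 1583 FPKM in susceptible and 613 in control, and for 10 of 10 with AAV-CDYL, with sums of 2552 and 656 with AAV-GFP. Astrocyte markers were higher for 3 of 6 in the stress pair (666 and 402 FPKM in susceptible and control) and for 6 of 7 with AAV-CDYL, where 1 was lower (708 and 211 FPKM with AAV-CDYL and AAV-GFP). Single genes carried much of these sums. Aldoc had 443 FPKM in susceptible and 276 in control, and Gfap 386 with AAV-CDYL and 5.85 with AAV-GFP. Aqp4 stood lower in susceptible (6.36) than in control (9.87), and Gjb6 was the gene lower with AAV-CDYL (19.5 against 44.7). Microglia markers were higher for 1 and lower for 2 of 7 in the stress pair (187 and 178 FPKM), and higher for 9 of 10 with AAV-CDYL (1566 and 216 FPKM). Neuron markers were higher for 0 and lower for 1 of 5 in the stress pair (5 of 10 listed, 1028 FPKM in susceptible and 1430 in control). With AAV-CDYL they were lower for 5 of 8 (8 of 10 listed, 2556 and 3970 FPKM). The part that these differences have in the endothelial values was not tested.

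Across the 3235 genes at the floor in both tables, the genes nearest to Vwf in their 2 differences were Mgp (distance 0.52 on the log2 scale), Psd4 (0.67), Scgb3a1 (0.91), Mobp (0.94) and Hapln2 (0.96). Mgp, matrix Gla protein, had 36.1 FPKM in susceptible and 4.52 in control, and 13.1 with AAV-CDYL and 3.10 with AAV-GFP. Those nearest to Ly6c1 were Anln (0.16), Rps23-ps2 (0.20), Apoc1 (0.22), S1pr5 (0.24) and Rpl19-ps1 (0.25). None of these 10 is on the 8 lists, and Mobp is on the list of oligodendrocyte markers. Which cell types express the others was not examined, so Mobp need not be the only one of that kind. Psd4 and Scgb3a1 had less than 1 FPKM in control and in AAV-GFP, Scgb3a1 being listed at 0 in AAV-GFP. Apoc1 was listed at 0 in control. Likeness here rests on 2 differences from 4 libraries.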

How the data were processed

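RNA-seq libraries of mouse prelimbic cortex, 1 per group in 4 groups, were analysed from 2 deposited tables of FPKM values. The authors made the FPKM values with Cuffdiff on build mm10, as far as the submitters' processing notes name tools; the aligner is not given in the sources used here. The q-values in the authors' deposited tables come with each pair of libraries and are printed as theirs. The library kit, per the labels' protocols, is not one that marks strand, so sense and antisense fragments cannot be told apart.

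Genes were matched by symbol, and list genes by Ensembl ID. Differences of log2(FPKM + 1) were taken within a table, with a floor of 1 FPKM in either library and a size rule of 1.5-fold; no test was possible. Effective depth was estimated from the steps of low FPKM values: of the 224 to 265 values used per library, 93.3% to 95.8% lay within 0.15 of a whole step. The depth was chosen to make this share largest, so the share is no separate check of the depth. Counting intervals (95%) follow from the estimated depth and cover counting error only. Per-sample columns left unmapped numbered 0. Named are all members, up to 3 genes per list and pair with the largest differences, and the 5 genes nearest to Vwf and to Ly6c1. Cdyl, Selp, Ly6e, Cd8a, Ccr2, Treml1, Clec1b and Gp6 were added after their values were seen. So were the values of Lynx1, Cdh5, Vcam1 and Aqp4 in the pair where they were not among the 3. Some genes that the rule names are not reported here. The members and lists were chosen with earlier results of these data known. Python 3.11.15, pandas 2.3.3, numpy 2.4.6, scipy 1.17.1 and matplotlib 3.10.9 were used. Alternatives changed the pseudocount, floor, size rule, scaling and shared loci.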

Additional observations from a re-analysis of the deposited data

How the results depend on the processing

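Of the 9 alternatives only centring and upper quartile scaling could turn the direction of a difference, and under neither did a member's turn. Over all alternatives 117 values kept their side of the size rule, 9 passed it where they had not and 7 no longer did. Changes of the floor or of shared loci leave the value of a member that stays in as it was. Many of the 117 were therefore the same by construction. In the stress pair 5 members were higher, and 3 (Vwf, Ly6c1 and Ly6a) with a 2-fold rule. With AAV-CDYL 5 were higher, and 3 with a 2-fold rule or after centring on the median difference, which takes off 0.30 in this pair and 0.24 in the other. Over genes with a reference level of at least 1 FPKM those medians were -0.32 and -0.29, so centring rests on the floor chosen. Kdr counted as lower with pseudocounts of 0.1 (-0.75) and 0.5 (-0.63) and after centring (-0.77), and Slco1a4 after centring (-0.67). Genes of the 8 lists that were higher in the stress pair numbered 22, and 37 with a pseudocount of 0.1, 11 with a floor of 5 FPKM, 8 with a 2-fold rule, 11 after centring (with 16 lower) and 43 after scaling to a common upper quartile. With AAV-CDYL they numbered 40, and 22 with a floor of 5 FPKM, 22 with a 2-fold rule and 26 after centring; without the Ly6 family, added after the data were seen, the counts were 19 and 33. The stricter rule and floor admit fewer genes by construction; for the scalings the cause was not tested. Counts over all genes also moved, to 366 higher and 136 lower in the stress pair and 1424 and 145 with AAV-CDYL under the 2-fold rule. After centring 9.97% of all genes were higher and 36% lower in the stress pair, and 20.3% and 44.4% with AAV-CDYL. Upper quartile scaling made 43.9% of all genes higher in the stress pair. No paired analysis was possible because each group has 1 library. The spread between mice was not measured, and depth was only estimated, at 23500000 fragments in susceptible and 14400000 in control; no alternative equalised it.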
